A study of Mus musculus with 3 samples.

Results

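Broad H3K4me3 peaks were examined in ovaries of C57BL/6 J mice that were wild type and 8 weeks of age. H3K4me3, the trimethylation of lysine on the tail of histone H3, was profiled by chromatin immunoprecipitation with sequencing (ChIP-seq), in which an antibody pulls down the DNA that carries the mark. The members were chosen by their measured width. A peak was counted as broad when it was listed with a width of at least 1000 bp on chromosomes 1 to 14 or 16 to 19, and as narrow when it was shorter on the same chromosomes. This gave 300 broad and 8849 narrow peaks, so that 3.28% of 9149 peaks were broad (95% Wilson interval 2.93 to 3.66%). The whole H3K4me3 list held 9929 peaks, and among those left out 235 on chromosome 15 and 2 on an unplaced contig of chromosome 9 were also at least 1000 bp wide. The series had 3 libraries from mice of the same strain, age and genotype, which were an H3K4me3 immunoprecipitation, a BNC1 immunoprecipitation and an input. How many mice gave the tissue of a library is not given in the sources used here. A list of 2578 peaks of BNC1 (basonuclin 1), a zinc finger protein of germ cells and basal keratinocytes, was used for distances. The input was not analysed here. Each antibody was represented by 1 library, so no value below has a replicate check, and no test was made across peaks, which are not replicates. Intervals cover counting error only.

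H3K4me3 is written by methyltransferase complexes of the SET1 and MLL families and lies mainly over the start sites of active or poised genes, often at CpG islands. In many tissues the widest domains of the mark are known to sit at genes that define the identity of a cell, and growing oocytes are known to carry wide domains away from start sites as well. The ovary is a mixture of granulosa, theca, stromal, vascular and germ cells. In such bulk chromatin, the number of cells that carried the mark at a site and the amount carried by each cell cannot be told apart. Regions are given in the coordinates of the deposited lists. The submitters' processing notes name the mm9 mouse assembly, for which no gene models or sequence were used here, so the genes at these peaks are not named.

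Broad peaks were mostly little wider than the limit that defined them. Their median width was 1194.5 bp (interquartile range 1090.75 to 1379.25 bp), against 372 bp for narrow peaks (291 to 494 bp). Of the 300 peaks, 154 were under 1200 bp, 96 were from 1200 bp to under 1500 bp, 34 were from 1500 bp to under 2000 bp and 16 were wider. The narrowest members were on chromosome 12 from 100158006 to 100159005 (1000 bp, 128 tags), on chromosome 5 from 28643040 to 28644040 (1001 bp, 150 tags) and on chromosome 1 from 36074491 to 36075492 (1002 bp, 137 tags). The widest peaks just outside the limit held similar numbers, with 119 tags in 999 bp on chromosome 1 from 60154660 to 60155658, 148 tags in 999 bp on chromosome 17 from 4995069 to 4996067 and 136 tags in 998 bp on chromosome 19 from 5559783 to 5560780. The limit therefore cut through a continuous range of widths, as the plot of width against tags shows.

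**Figure D1:**
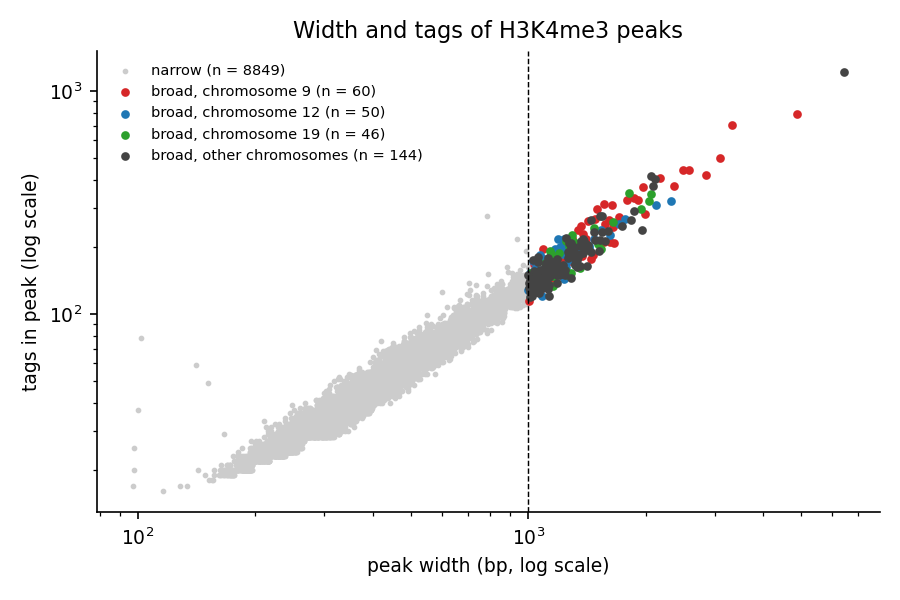
Width (bp) and number of tags of each H3K4me3 peak on log axes, with narrow peaks in grey and broad peaks coloured by chromosome. The dashed line is the limit of 1000 bp, and the broad peaks reach from 1000 to 6443 bp and from 114 to 1220 tags with no gap at the line.

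The widest member lay on chromosome 1 from 90170865 to 90177307. It was 6443 bp wide, held 1220 tags and stood alone, with 156323 bp to the nearest other H3K4me3 peak. The other 4 of the 5 widest peaks were all on chromosome 9. They ran from 14183099 to 14187979 (4881 bp, 792 tags), from 34799624 to 34802946 (3323 bp, 701 tags), from 13227307 to 13230400 (3094 bp, 501 tags) and from 34822291 to 34825146 (2856 bp, 422 tags). The peak of 3323 bp had the densest signal of any member, at 211 tags per kb. Ranking by tags gave the same first 4 peaks, and the fifth by tags was a chromosome 9 peak between 9237556 and 9240049, with 443 tags in 2494 bp.

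Tags were packed more densely in broad than in narrow peaks. Because width and tags come from the same peak calls, this is a description of the members and not a test. Broad peaks held a median of 167 tags (146.75 to 206.25), and their median density was 140.4 tags per kb (95% binomial interval of the median 138.1 to 142.7), against 115.8 for narrow peaks. The ratio of the medians was 1.21. The density rose with width through every band, from 110.7 tags per kb below 250 bp, 113.7 from 250 bp to under 500 bp, 123.3 from 500 bp and 132.0 from 750 bp, to 134.3 among members under 1200 bp, 142.9 from 1200 bp, 151.3 from 1500 bp, 169.4 from 2000 bp and 175.8 in the 4 peaks of 3000 bp or more. Broad peaks made up 9.81% of all peak bases (397889 of 4054016 bp) and 11.7% of all tags in peaks (58271 of 497555). The denser signal was seen within chromosomes too, since the median density was higher in broad peaks on all 9 chromosomes that had at least 10 of them.

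Fold enrichment, the ratio of a peak over the background expected by the authors' peak caller, differed little between the pooled groups. Its median was 7.31 in broad peaks (interval 7.06 to 7.50) and 7.35 in narrow peaks. Tags per kb divided by fold enrichment is called the background index here. It would follow the background expected by the caller only if peak shape were the same, because tags are counted over the whole peak and the numerator of the deposited ratio is not stated, and the background itself was not measured. The index had a median of 19.2 in broad peaks (18.5 to 20.2) against 15.8 in narrow peaks, a ratio of 1.22. The size of this difference varied between chromosomes. The index was 28.1 in broad against 15.8 in narrow peaks on chromosome 9 and 20.7 against 17.1 on chromosome 12, but 16.25 against 16.12 on chromosome 5, 17.16 against 17.18 on chromosome 8 and 19.7 against 19.1 on chromosome 19. On chromosomes 5 and 8 the denser signal went with a higher fold enrichment, of 8.60 against 7.26 and of 7.94 against 6.98. Within chromosomes the fold enrichment was higher in broad peaks on 7 of the 9 chromosomes with at least 10 of them, and lower on chromosomes 9 and 11. On chromosome 9 it was 5.34 in 60 broad peaks (4.86 to 6.28) against 7.29 in narrow ones. Without chromosome 9 the order of the pooled medians turned, to 7.50 in broad peaks (7.31 to 7.81) against 7.35. With or without chromosome 9, the broad interval held the narrow median.

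The listed significance, 10 times the −log10 of the p-value, had a median of 255.37 in broad and 76.3 in narrow peaks. It did not simply follow the number of tags. The widest peak, with 1220 tags, was listed at 185.36, whereas the strongest member, with 347 tags on chromosome 19 between 3766949 and 3768757, was listed at 955.42. The weakest member was the peak of 2856 bp on chromosome 9, at 53.68, which is close to the start of the list at 50.01. A false discovery rate of 0 was listed for 76 broad peaks, or 25.3% (Wilson interval 20.7 to 30.5%), and for 12 narrow peaks, or 0.136%. The median listed rate went the other way. It was higher in broad peaks, at 0.25% (interval 0.23 to 0.26%), than in narrow peaks, at 0.17%.

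The members spanned a wide range of fold enrichment. The highest fold enrichments were 14.3 on chromosome 11 from 118917588 to 118919031 (263 tags), 14.29 at the strongest member on chromosome 19 and 13.84 at a pair of peaks on chromosome 8, from 41508830 to 41510224 (199 tags) and from 71258433 to 71259491 (181 tags). The fifth, at 13.33 on chromosome 14 from 25064212 to 25065313, was the only broad peak of its chromosome, and the gap to the next H3K4me3 peak was 1131560 bp. The index of these 5 peaks lay between 10.3 and 13.4, below the narrow median. The lowest fold enrichments were 3.05 and 3.19, at the peaks of 3094 and 2856 bp on chromosome 9, and 3.70 at a peak on the same chromosome from 13272535 to 13274185, with indices of 53.1, 46.3 and 40.1.

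**Figure D2:**
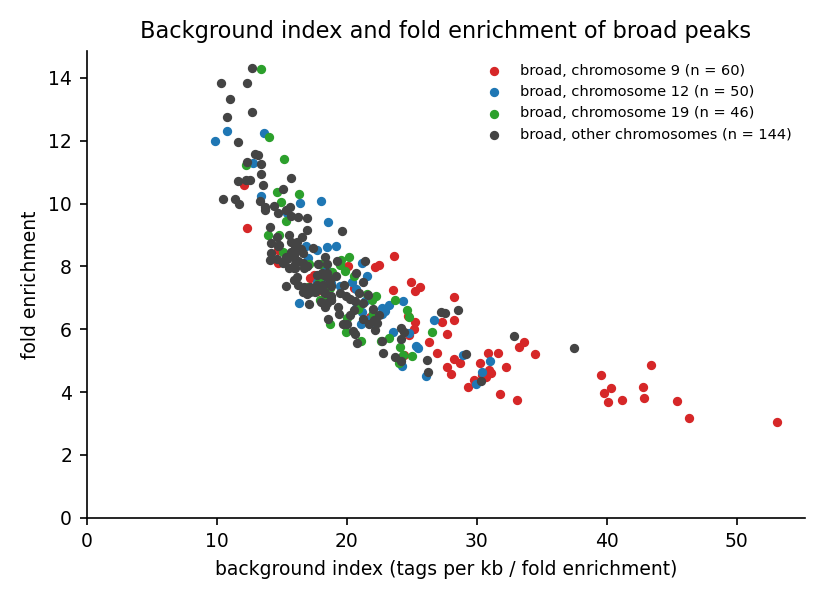
Background index (tags per kb divided by fold enrichment) and fold enrichment of the 300 broad peaks, coloured by chromosome. The peaks fall along a curve because the index has fold enrichment in its denominator, and the largest indices, up to 53.1, are on chromosome 9.

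An index of at least 2 times the narrow median, or 31.6, a limit set after the values were seen, was reached by 20 broad peaks (6.67%) and by 23 narrow peaks (0.260%). Of these 20 broad peaks, 18 were on chromosome 9 and the other 2 were on chromosome 4. Their median width was 1646 bp and their median fold enrichment 4.14, against 1180.5 bp and 7.40 for the other 280 broad peaks.

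Broad peaks were spread unevenly over the chromosomes. Chromosome 9 held 60, chromosome 12 held 50 and chromosome 19 held 46, so that 52.0% of broad peaks lay on chromosomes with 19.7% of all peaks. The share of peaks that were broad was 10.2% on chromosome 9 (Wilson interval 8.04 to 13.0%), 8.16% on chromosome 12 (6.24 to 10.6%) and 7.68% on chromosome 19 (5.81 to 10.1%), and these intervals overlapped each other. The next highest share, 4.25% on chromosome 3 (3.12 to 5.75%), had an interval that ended below theirs. Chromosome 7 had no broad peak among 324, which allows a share of up to 0.926%. Chromosome 18 had none among 89, which allows up to 3.37% of the peaks analysed here, and whether these are all peaks called on that chromosome is not known.

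**Figure D3:**
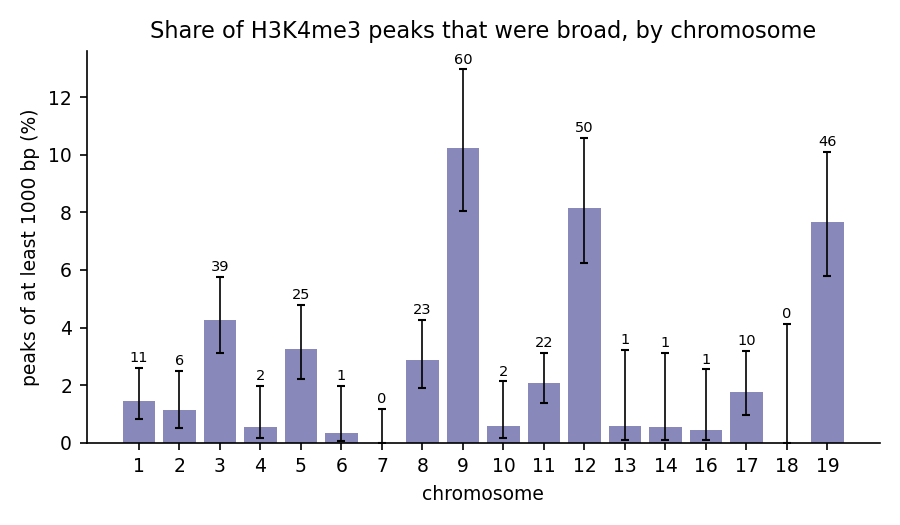
Share of H3K4me3 peaks of at least 1000 bp on each chromosome (%), with 95% Wilson intervals as bars and the number of broad peaks above each. Chromosomes 9, 12 and 19 stand above the others, with 60, 50 and 46 broad peaks.

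The 9 chromosomes with at least 10 broad peaks differed from the other 9 also in their whole lists and in the index of their narrow peaks. They had 570 to 1060 listed peaks against 89 to 522, and the median index of their narrow peaks ran from 15.5 to 19.1 against 13.2 to 14.3. The median width of all their listed peaks was also larger, at 370 to 475 bp against 296 to 338 bp. There was no overlap in any of these measures. The chromosomes were split by their number of broad peaks, and the broad peaks are among all listed peaks. A separation in the number and width of listed peaks is therefore in part built in and is not a test. Over all narrow peaks the index rose with width, from a median of 13.8 below 250 bp to 18.0 from 750 bp. The other 9 chromosomes held 14 broad peaks in all. The part that the index or the general width of peaks has in the number of broad peaks was not tested.

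Along the chromosomes, broad peaks gathered in a few stretches. Of 241 windows of 10 Mb with any listed peak, 87 had a broad peak and 6 had at least 10. These 6 windows held 102 broad peaks, or 34.0%, against 6.14% of all peaks. The fullest window was on chromosome 9 between 30 and 40 Mb, where 22 of 54 peaks were broad, and it was followed by chromosome 12 between 110 and 120 Mb (21 of 138) and by the first 10 Mb of chromosome 19 (19 of 178). Chromosome 12 between 100 and 110 Mb had 16 of 100, and chromosome 9 had 13 of 35 between 10 and 20 Mb and 11 of 57 between 40 and 50 Mb. The median index of broad peaks was 29.6, 39.8 and 28.0 in the windows on chromosome 9, and 20.1 to 21.1 in those on chromosomes 12 and 19. On chromosome 9 the 14 broad peaks outside its fullest windows had an index of 17.6 and a fold enrichment of 7.68 in the median.

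When each chromosome was divided into 10 equal bins between its outermost listed peaks, the last bin held 64 broad peaks, or 21.3% (Wilson interval 17.1 to 26.3%), and 15.03% of narrow peaks. The first bin held 38, or 12.7% (9.37 to 16.9%), against 7.83%. The higher share in the first bin rested on the 3 chromosomes richest in broad peaks, since without chromosomes 9, 12 and 19 it was 4.17% (1.92 to 8.79%) against 6.59%. The last bin then held 20.8% of the 144 broad peaks left, with an upper bound of 28.2%, against 14.8% (13.98 to 15.6%) of narrow ones, and the lower bound of the broad share lay within the narrow interval.

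Neighbours were counted next, since a wide domain can be listed as several peaks. Another H3K4me3 peak lay within 10 kb of 159 broad peaks, or 53.0% (Wilson interval 47.4 to 58.6%), where 53.4% of all 9149 peaks had one. The pooled value joined different chromosomes. On chromosome 12, 43 of 50 broad peaks (86.0%) had such a neighbour, against 62.9% of narrow peaks. On chromosome 17 the count was only 8 of 10, against 58.4% of narrow peaks. On the other 7 chromosomes with at least 10 broad peaks the share was lower in broad than in narrow peaks, for example 38.5% against 63.7% on chromosome 3 and 32.0% against 53.6% on chromosome 5. Without chromosomes 9, 12 and 19, 41.7% of broad peaks had a neighbour within 10 kb (33.9 to 49.8%), against 51.4% of narrow ones.

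With all chromosomes pooled, broad peaks were next to each other more often than narrow peaks were next to broad ones. Among the 159 broad peaks with a neighbour within 10 kb, the nearest one was itself broad in 18 cases, or 11.3% (Wilson interval 7.28 to 17.2%), against 2.82% (2.38 to 3.33%) of 4723 narrow peaks. These shares were not compared within chromosomes or windows, which differed in their share of broad peaks. They therefore cannot be told apart from the uneven placement described above. When peaks with gaps of up to 10 kb were linked, 38 broad peaks (12.7%) and 5.42% of narrow peaks fell into groups of more than 5. This contrast was also pooled and not compared within chromosomes or windows, so it too cannot be told apart from the uneven placement. The largest group had 15 peaks, and 141 broad peaks (47.0%) were alone, as were 46.6% of narrow peaks.

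Consecutive broad peaks with no narrow peak between them and gaps of up to 10 kb formed 12 runs. The longest had 5 peaks, on chromosome 9 from 34794146 to 34805962, with widths of 1176, 1213, 3323, 1094 and 1606 bp and 1512 tags in all. The last 2 of its peaks were 10 bp apart. A run of 3 lay on chromosome 12 from 56538855 to 56543889, with widths of 1052, 1616 and 1038 bp, and the other 10 runs were pairs, the longest of them on chromosome 9 from 40554648 to 40565703. Of the 10 pairs, 5 were on chromosome 12, 4 on chromosome 9 and 1 on chromosome 11.

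The number of broad peaks depended on where the caller ended a peak. Joining H3K4me3 peaks up to 500 bp apart gave 1028 stretches of at least 1000 bp. Of these, 291 contained a broad peak (221 of them a broad peak alone), and 737, or 71.7%, were made of narrow peaks only, in the median of 2. The stretches with a broad peak had a median of 138.0 tags per kb and those of narrow peaks only 98.9, in part because tags between the joined peaks are not listed. By this count, most of the wide stretches in the list were not among the members.

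With the members pooled, the place of the summit, the position of the highest signal, was near that of all peaks. Peaks were cut into 3 equal parts from start to end. The summit fell in the middle part in 150 broad peaks, or 50% (Wilson interval 44.4 to 55.6%), against 54.5% of narrow peaks and 54.3% of all. It lay within 10% of the width from either end in 10 broad peaks, or 3.33% (1.82 to 6.03%), against 0.373% (0.266 to 0.523%). Summits came no closer than 77 bp to an edge in broad and 40 bp in narrow peaks, which leaves little of that outer ground free in a narrow peak. In bp, the median distance from the summit to the nearer edge was 418 in broad and 121 in narrow peaks.

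**Figure D4:**
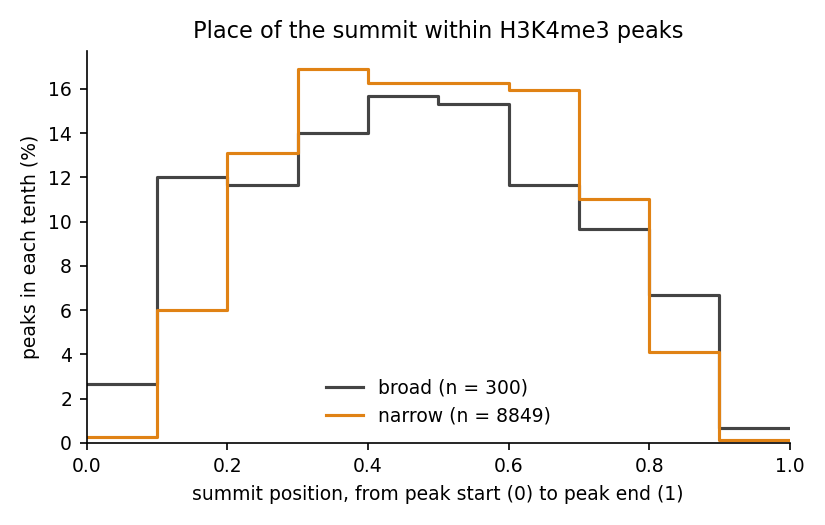
Place of the summit within the peak, from the start (0) to the end (1), as the share of peaks (%) in 10 equal bins, for 300 broad and 8849 narrow peaks. Both curves are highest in the middle, and the broad curve is above the narrow one in the 2 outermost bins on each side.

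Summits of broad peaks leaned towards the start coordinate. The first part held 92 (30.7%; 25.7 to 36.1%) and the last part 58 (19.3%; 15.3 to 24.2%). Narrow peaks leaned the same way, with 24.9% against 20.6%. The coordinates carry no strand, so this is not a direction of transcription. A close neighbour did not go with a shifted summit. Of 90 broad peaks with a neighbour within 1 kb on one side only, the summit lay on the neighbour's side of the peak centre in 48, or 53.3% (43.1 to 63.3%), against 51.9% of narrow peaks. Broad peaks without a neighbour within 10 kb had their summit in the middle part in 66 of 141 cases, or 46.8% (38.8 to 55.0%), against 55.2% (53.7 to 56.7%) of such narrow peaks.

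To relate the broad peaks to BNC1, the distance to the nearest BNC1 peak was taken. A BNC1 peak shared at least 1 bp with 6 broad peaks, or 2% (Wilson interval 0.920 to 4.29%), where 0.350% of all 9149 peaks did. Within 10 kb there was one for 19 broad peaks, or 6.33% (4.09 to 9.68%), against 3.39% of all peaks and 3.29% of narrow ones. Overlap favours wide peaks by their length alone. When the distance was taken from the H3K4me3 summit to the BNC1 centre, which does not use the width, the share within 10 kb was again 6.33%, against 3.23% of narrow peaks.

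The pooled difference within 10 kb rested mostly on chromosome 9. It held 10 of the 19 peaks, so that 16.7% of its 60 broad peaks were within 10 kb of BNC1 (9.31 to 28.0%), against 4.37% (2.93 to 6.48%) of its narrow peaks. These broad and narrow peaks were not matched for their place along the chromosome. Without chromosome 9 the shares were 3.75% (1.99 to 6.97%) and 3.22%. By chromosome, the broad share was above the narrow one on 4 of the 9 with at least 10 broad peaks and below it on 5. Among those above was chromosome 8, with 3 of 23 broad peaks (13.0% against 4.62%). Shared bases, a measure that favours wide peaks, were few elsewhere. Without chromosome 9, 3 of 240 broad peaks shared bases with BNC1, or 1.25% (0.426 to 3.61%), against 0.312% (0.213 to 0.457%) of narrow peaks. These intervals overlapped. From summit to BNC1 centre, 3 of these 240 broad peaks (1.25%) were within 1 kb, against 0.769% of narrow peaks. The median distance was 65842 bp for broad peaks on chromosome 9 (interval 46117 to 81165 bp) and 208444 bp for narrow ones there. Over all chromosomes it was 243223 bp for broad peaks (192449 to 306703 bp) and 284226 bp for narrow peaks, and without chromosome 9 the order of the medians turned, to 340164 bp (258833 to 432511 bp) against 287305 bp. The order turned back without chromosomes 9, 12 and 19, to 224778 bp (147299 to 297799 bp) against 276842 bp. In each of these settings the broad interval held the narrow value. In other settings the broad interval lay below the narrow median. With a width limit of 1500 bp it was 71720 to 238198 bp against 283611 bp. With peaks up to 500 bp apart joined it was 227479 to 279882 bp against 290698 bp, and with chromosome 15 it was 182811 to 235902 bp against 278769 bp. The order was therefore not the same in all settings. Of the 9 chromosomes with at least 10 broad peaks, broad peaks were farther from BNC1 than narrow ones on 3, which were chromosomes 1, 12 and 19. On chromosome 12 broad peaks were far from BNC1, with a median of 1204618 bp against 702355 bp for narrow peaks, and its windows from 100 to 110 Mb and from 110 to 120 Mb, with 16 and 21 broad peaks, held 1 and 3 BNC1 peaks. On chromosome 9, 49 BNC1 peaks lay in the window from 10 to 20 Mb, 69 in that from 30 to 40 Mb and 11 in that from 40 to 50 Mb. These 3 windows held 46 of its 60 broad peaks. The window from 0 to 10 Mb had 3 broad peaks and 54 BNC1 peaks. Narrow peaks of the same windows were not compared apart, so the difference on chromosome 9 cannot be told apart from place.

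**Figure D5:**
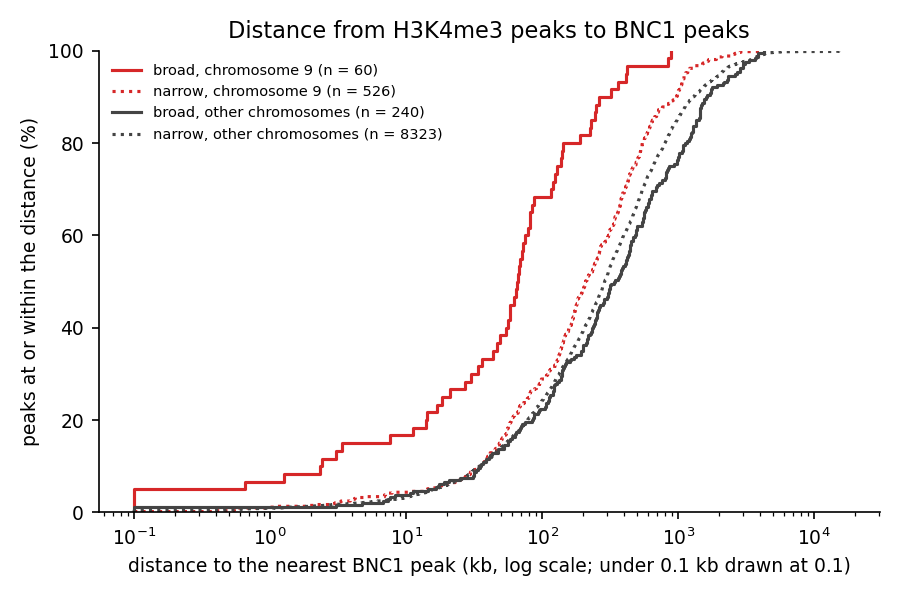
Share of H3K4me3 peaks (%) at or within a given distance of the nearest BNC1 peak (kb, log axis), for broad (solid) and narrow (dotted) peaks on chromosome 9 (red) and the other chromosomes (grey). The curve of the 60 broad peaks on chromosome 9 lies above the rest, with a median of 65842 bp, and the other 3 curves run close together at short distances.

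Of the 20 broad peaks with an index of at least 31.6, of which 18 were on chromosome 9, 6 were within 10 kb of BNC1, or 30.0% (14.5 to 51.9%). Among the other 280 it was 13, or 4.64% (2.73 to 7.78%), so most of the 19 broad peaks near BNC1 were below that index. Of the 23 narrow peaks that reached the same index, 1 was within 10 kb of BNC1, or 4.35% (0.772 to 21.0%), against 3.29% of the other narrow peaks. The part of the index in this was not tested.

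The 6 broad peaks that shared bases with BNC1 are given singly. The listed significance of their BNC1 partners was 42.37 to 45.33, below the start of the H3K4me3 list at 50.01. The exception was the partner of the chromosome 9 peak that starts at 14078901, listed at 56.87. On chromosome 9, the peak from 13257473 to 13258851 (229 tags, 4.12-fold) overlapped a BNC1 peak of 44 tags and 4.24-fold enrichment. The peak from 14078901 to 14080382 (266 tags, 5.20-fold) overlapped one of 33 tags and 4.48-fold, and that from 34924571 to 34925857 (213 tags, 5.23-fold) one of 27 tags and 4.34-fold. All 3 of these H3K4me3 peaks had an index over 31, and their BNC1 partners were 401 to 584 bp wide. The peak on chromosome 4 from 62179749 to 62181863 was similar, with 403 tags, 5.79-fold enrichment and a BNC1 partner of 19 tags and 5.03-fold.

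The other overlaps were on chromosomes 19 and 8. The peak on chromosome 19 from 5566910 to 5568442 (196 tags, 5.64-fold) overlapped a BNC1 peak of 12 tags and 6.08-fold. The peak on chromosome 8 from 71258433 to 71259491, one of the most enriched members, overlapped one of 8 tags and 11.71-fold. In none of the 6 did the summits coincide, the smallest distance between them being 225 bp and the largest 699 bp. The 18 different BNC1 peaks nearest to the 19 broad peaks had a median of 12.5 tags and 7.13-fold enrichment, against 8 tags and 8.37-fold in all 2386 BNC1 peaks on these chromosomes.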

How the data were processed

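ChIP-seq libraries of ovary were grouped by the antibody or title in their labels, with 1 library each for H3K4me3, BNC1 and input. Per the labels, nuclei were sonicated, whereas in the study's methods micrococcal nuclease came first and sonication after it, and those methods do not name the H3K4me3 antibody and give ThermoFisher as supplier of the BNC1 antibody, where the label gives Huaan, so the protocol behind the libraries is not certain. The submitters' processing notes name the mm9 assembly, Bowtie2 and MACS2 2.1.0 with no roles; settings and the control library are not given in the sources used here. The lists of peaks are the authors' own, 1 per library. The tags deposited for each peak are counts without normalization, which gives the only depth known. Fold enrichment was deposited as a linear ratio over the caller's background, the p-value as a score of 10 times −log10 of p, and the false discovery rate as a percent. Because the peak limits were set by the authors' caller, widths and gaps depend on its settings.

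Distances are bases between peak edges, with 0 for overlap. Values were computed with pandas 2.3.3, scipy 1.17.1 and numpy 2.4.6 under Python 3.11.15, and matplotlib 3.10.9 drew the figures. Shares have 95% Wilson intervals, medians have 95% exact binomial intervals from order statistics, and a count of 0 was given an upper limit of 3 counts. Distances, gaps and intervals were tested on simulated data. No p-value was computed across peaks. Peaks named are the 5 widest, the 5 with most tags, the 5 of highest and 3 of lowest fold enrichment, 3 on either side of the width limit, the fullest windows, the longest runs and all that shared bases with BNC1; the strongest and weakest p-values were added after their values were seen. Members, rules and comparisons were chosen with earlier results of these data known. The gene table at hand is of GRCm38.p6, another build, and was not used, so the planned gene lists were not looked up and no sequence is shown.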

Additional observations from a re-analysis of the deposited data

How the results depend on the processing

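Of 59 recomputed values, 28 stayed inside the interval of the main value or, for counts, within 1.5 times of it, 30 moved beyond that and 1 reversed. A reversal was counted only where the narrow value lay outside the interval of the main broad value. Without that condition, 35 of 45 values kept the side of the narrow value that the main one had. Those that did not were the merged density, fold enrichment at 800 bp (7.39 against 7.33), without chromosome 9 (7.50 against 7.35) and without chromosomes 9, 12 and 19 (7.79 against 7.47), the median distance to BNC1 without chromosome 9, and the neighbour share in 5 settings, among them 63.2% against 54.1% with chromosome 15. Leaving out chromosomes 9, 12 and 19 was chosen after seeing the data.

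The 300 broad peaks became 634 at a limit of 800 bp, 50 at 1500 bp, 1028 after merging peaks within 500 bp, 535 with chromosome 15 and 144 without chromosomes 9, 12 and 19. Their share of 3.28% became 6.93%, 0.547%, 13.6%, 5.39% and 1.96% in the same settings, 4.20% when the p-value had to be at least 10 times lower than that of the weakest peak and 2.80% without chromosome 9. The median of 140.4 tags per kb became 135.8 at 800 bp, 157.3 at 1500 bp, 148.9 with chromosome 15 and 135.4 without chromosomes 9, 12 and 19. It reversed after merging, to 109.3 in wide against 113.9 in other stretches, where tags between merged peaks are missing by construction. Fold enrichment of 7.31 became 6.64 at 1500 bp, 6.32 with chromosome 15 and 7.79 without chromosomes 9, 12 and 19.

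The share with an H3K4me3 neighbour within 10 kb was 53.0% against 53.4% of narrow peaks. It became 32.3% after merging (narrow 31.0%) and 63.2% with chromosome 15 (narrow 54.1%). It was 41.7% without chromosomes 9, 12 and 19 (narrow 51.4%) and 36.0% within 1 kb (narrow 39.1%). The median distance to BNC1 of 243223 bp became 138580 bp at 1500 bp, against 283611 bp in narrow peaks. It was 340164 bp without chromosome 9 (narrow 287305 bp) and 224778 bp without chromosomes 9, 12 and 19 (narrow 276842 bp). The share within 10 kb of BNC1 was 6.33% against 3.29% of narrow peaks. It became 3.89% after merging (narrow 3.41%) and 3.75% without chromosome 9 (narrow 3.22%). Without chromosomes 9, 12 and 19 it was 3.47% (narrow 3.29%), and for shared bases 2% (narrow 0.294%). For BNC1 peaks past the p-value floor of the H3K4me3 list it was 1% (narrow 0.520%). Apart from the merged density, the causes were not tested. Merged stretches have no summit or fold enrichment, so these were not recomputed for them. Total depth and the signal of the input are not known, which limits any reading of the index.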

Other observations

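The only broad peaks of chromosome 4 lay 15285 bp apart and were much alike. The first ran from 62162405 to 62164463 and the other from 62179749 to 62181863. They were 2059 and 2115 bp wide, held 416 and 403 tags, and had their summits 1143 and 1169 bp from the start. Their indices of 37.5 and 32.9 were the only ones among broad peaks outside chromosome 9 that reached 2 times the narrow median. These peaks were picked out after their values were seen.

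On an unplaced contig of chromosome 9, outside the chromosomes compared, 2 further peaks were at least 1000 bp wide. They had 222 tags in 1741 bp and 211 tags in 1353 bp, with fold enrichments of 4.08 and 4.73 and indices of 31.3 and 33.0.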
